A study of Mus musculus with 12 samples.

Results

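The chemokine ligands and chemokine receptors of mouse liver were taken from the raw count table as the protein-coding genes whose symbol began with Ccl, Cxcl, Ccr, Cxcr or Ackr followed by a digit, or with Cx3c, Xcl1 or Xcr1. This rule gave 60 genes, 37 ligands and 23 receptors, of the 21897 protein-coding genes and 55401 genes of the table. A further 3 annotated genes with matching symbols, Cxcl11, Ccl19-ps1 and Ccl19-ps3, are pseudogenes or polymorphic pseudogenes in the annotation and were not counted among the 60. Both groups were livers of female mice on a C57BL/6J background at 15 weeks of age, with 6 mice each. The iTgMir483 mice carried a single copy of the microRNA gene Mir483 under Tet-off control at the Rosa26 locus, and a CMV-Cre transgene had been used to delete the Neo cassette. Controls were their littermates, and the sources used here do not state whether those carried Cre. For the postnatal experiment, the dams, shared by both groups, drank doxycycline through pregnancy to hold the transgene off, and it was withdrawn afterwards, so Mir483 was on from about birth in every cell type where the locus is active. Whole liver was used, and fewer cells of a type and less RNA per cell cannot be told apart in such bulk samples.

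Chemokines are small secreted or membrane-tethered proteins that guide leukocytes along gradients, each acting on one or a few G protein-coupled receptors on the migrating cell. In liver they are made by hepatocytes, Kupffer cells, endothelium, stellate cells and bile duct epithelium, and they are best known there for drawing neutrophils, monocytes and lymphocytes into the tissue. Atypical chemokine receptors bind chemokines without the usual G protein signal and clear or redistribute them.

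Mir483 itself had 0 counts in all 6 control livers and between 318 and 761 counts (23.3 to 54.3 CPM) in the iTgMir483 livers. CPM is a gene's count scaled to a common library total, after TMM correction of the library sizes for composition. These counts come from longer transcripts over the gene, not from the mature products. The RefSeq mature sequences of the microRNA that was switched on are shown because they define which target sites were searched. Both lie on the minus strand of GRCm38.p6, at chr7:142654932-142654952 and chr7:142654968-142654989, and the capitals mark the seed, bases 2 to 8.
mmu-miR-483-3p: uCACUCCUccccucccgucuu
mmu-miR-483-5p: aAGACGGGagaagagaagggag

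Control libraries held 12244123 to 30431286 counts and iTgMir483 libraries 12415140 to 15846175, so that 1 count was worth between 0.0342 and 0.0914 CPM. The replicate 1 libraries of both groups stood apart in earlier results of these data, and across genes the pair shared its departure from the group means (r = 0.47, while no other pair of the same number exceeded 0.182). Within its group, iTgMir483 replicate 4 held the highest summed level of Kupffer cell markers (1230 CPM, against 424 to 693 CPM in the other 5). Values without these libraries are given beside each result whose call they change.

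Of the 60 genes, 23 had enough counts to be tested, 15 ligands and 8 receptors. The filter on low counts could be passed through the livers of 1 group alone, for these genes as for all genes tested. A gene was called changed where edgeR's quasi-likelihood test gave an adjusted p under 0.05 (Benjamini-Hochberg, over the 13205 genes tested) and the fold change exceeded 1.5. By this rule 2 of the 23 changed (8.70%), the ligands Cxcl1 and Cx3cl1, both higher in iTgMir483 livers, while 11.1% of all genes tested changed. Among the ligands 2 of 15 rose (13.3%), against 8.41% of all genes tested that were higher. Lower by the same rule were 0 ligands, beside 2.73% of all genes tested. At an unadjusted p under 0.05 in the edgeR test, 5 ligands were higher (Cxcl1, Cx3cl1, Cxcl13, Cxcl14 and Cxcl16) and 2 were lower (Cxcl12 and Ccl27a). Of the 2 lower ligands DESeq2 called 1, Ccl27a, and limma-voom 0. Counts at an unadjusted p, here and below, have no share of all genes tested beside them and are descriptions only. Among the 8 tested receptors, 0 changed in either direction by edgeR, and by DESeq2 and limma-voom 0 changed as well. At an unadjusted p under 0.05 there were 2, Ackr1 higher and Ccr2 lower. The share of all chemokine genes changed was thus near the background share.

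Groups did not overlap for 4 tested genes. All 6 iTgMir483 livers lay above all 6 controls for Cxcl1, Cx3cl1 and Cxcl16, which compares with 5.09% of all genes tested. Cxcl12 alone lay below in all 6, which compares with 2.83% of all genes tested. The median log2 fold change was 0.40 over the 15 ligands, 9 of them positive, and 0.03 over the 8 receptors, 4 of them positive, beside 0.0058 over all genes tested. The receptors spanned -0.64 to 0.67, and the quartiles of all genes were -0.20 and 0.27.

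**Figure D1:**
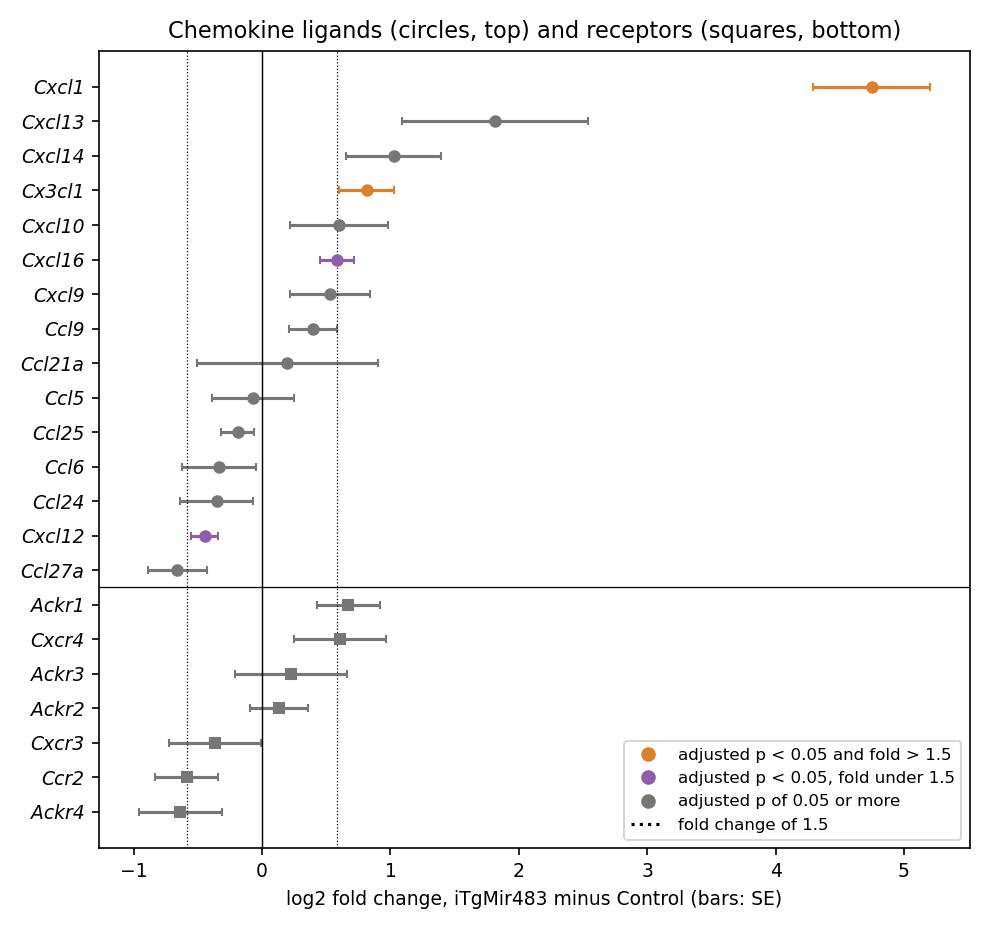
The log2 fold change of iTgMir483 over control livers is drawn for the 15 tested ligands (circles) and 7 of the 8 tested receptors (squares), with SE bars, and dotted lines mark a fold change of 1.5. Cxcl1, at 4.75, stands far to the right of the other genes, and the receptors lie on both sides of 0 with none past the test.

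Cxcl1, a ligand of Cxcr2 and a main attractant of neutrophils in mice, had the largest difference of the tested chemokine genes. Its counts in the 6 controls were 19, 25, 2, 14, 12 and 7. In the 6 iTgMir483 livers they were 92, 299, 267, 404, 602 and 200. Control livers therefore held little Cxcl1 RNA, and the lowest transgenic liver, replicate 1, was still well above the highest control. In CPM the controls ran from 0.139 over a median of 0.722 to 1.44, and the iTgMir483 livers from 6.70 over 18.7 to 37.7. The mean rose from 0.782 ± 0.474 to 21.1 ± 11.1 CPM (SD, n = 6 each), a log2 fold change of 4.75 (SE 0.456, edgeR adjusted p 3.06e-05), or 26.9-fold. Across 18 alternative analyses in which it was tested and the 1.5-fold rule was kept, Cxcl1 was called in all 18, with log2 fold changes from 4.50 to 5.09. Within the transgenic group the level differed several fold between livers, with replicate 5 highest.

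Cxcl1 (ENSMUSG00000029380) lies on the plus strand at 90891241 to 90893115 of chromosome 5 (GRCm38), in a cluster with the other ELR-type CXC ligands, the neutrophil-attracting subgroup that acts on Cxcr2. The other 4 ligands of this group in the table had too few counts for the test. Cxcl2, a close relative with the same receptor, had 1, 5, 1, 2, 1 and 0 counts in controls and 5, 16, 2, 3, 1 and 1 in iTgMir483 livers, and the groups overlapped (two-sided exact permutation test, p = 0.0996). Cxcl3 and Cxcl5 had at most 1 count in any liver, and Cxcl15 had 0 counts in all 12. At this depth no difference in those 3 genes was detectable. Cxcr2 itself, the receptor on neutrophils, had 0 to 12 counts in controls and 2 to 7 in iTgMir483 livers (exact permutation p = 0.156), and Cxcr1 had at most 4 counts in a liver.

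The RefSeq promoters of Cxcl1 and Cxcl2 are shown because they carry near-identical elements for NF-kappaB, a factor known to act at both promoters in inflamed tissue. Cxcl1 rose here, and Cxcl2 had too few counts for the test. Each sequence gives the 250 bases before the start site on the plus strand of GRCm38.p6, chr5:90890995-90891244 for Cxcl1 and chr5:90903649-90903898 for Cxcl2. Capitals mark matches on either strand to the motif GGG, any 3 bases, TTCC.
Cxcl1: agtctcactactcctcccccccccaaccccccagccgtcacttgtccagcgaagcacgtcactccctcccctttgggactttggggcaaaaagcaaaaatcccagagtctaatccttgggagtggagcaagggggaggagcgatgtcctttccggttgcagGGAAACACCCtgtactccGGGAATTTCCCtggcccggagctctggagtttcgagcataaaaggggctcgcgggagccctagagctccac
Cxcl2: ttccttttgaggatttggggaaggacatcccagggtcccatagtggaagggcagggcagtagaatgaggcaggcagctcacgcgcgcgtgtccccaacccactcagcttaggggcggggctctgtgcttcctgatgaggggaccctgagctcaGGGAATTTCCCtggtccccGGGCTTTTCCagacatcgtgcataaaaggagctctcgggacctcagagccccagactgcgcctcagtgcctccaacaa

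Both promoters held the letters GGGAATTTCC, at -71 from the start site in Cxcl1 and at -97 in Cxcl2. A second match lay at -89 in Cxcl1, on the reverse strand, and at -78 in Cxcl2. The motif was found in 9 of the 46 chemokine and receptor genes with a RefSeq promoter window (19.6%), namely Ccl1, Ccl9, Ccl20, Ccr3, Ccr6, Cxcl1, Cxcl2, Cxcl3 and Cxcl10, and in 6.31% of all 27025 genes with a window of the same 300 bases. Of the 9, Cxcl1, Cxcl10 and Ccl9 were tested, and only Cxcl1 changed. Searched the same way, TGANTCA (AP-1) was in 9 of the 46 genes (19.6%, against 8.97% of all genes), TTTC, any 2 bases, TTTC (the interferon-stimulated response element) in 3 (6.52%, against 3.99%) and TATAAA in 15 (32.6%, against 15.7%). The motifs were chosen after the values were seen, and a match is a description of the sequence, not a site in use.

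Cx3cl1, or fractalkine, is a membrane-tethered chemokine that holds cells bearing Cx3cr1. It was at a low level in every liver, with controls from 0.575 over a median of 0.745 to 0.992 CPM and iTgMir483 livers from 1.01 over 1.33 to 1.69 CPM. The groups came close but did not overlap. Its mean rose from 0.778 ± 0.151 to 1.38 ± 0.265 CPM (SD, n = 6 each; log2 fold change 0.81, SE 0.215, adjusted p 0.0175). This call was lost without the filter on low counts, where the adjusted p was 0.0744. Its receptor Cx3cr1, carried by monocytes and some lymphocytes, had 5 to 11 counts in controls and 4 to 18 in iTgMir483 livers, which overlapped (exact permutation p = 0.327).

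Cxcl16, a transmembrane ligand of Cxcr6 that also acts as a scavenger receptor, passed the adjusted p but fell just short of the fold threshold. Controls were tightly grouped from 8.05 over 8.35 to 9.20 CPM, and iTgMir483 livers ran from 9.90 over 12.4 to 16.2 CPM. All transgenic livers were higher, with replicates 4 and 6 highest. The mean of 8.45 ± 0.448 CPM in controls was 12.7 ± 2.55 CPM in iTgMir483 livers (SD, n = 6 each), a fold of 1.498 (log2 fold change 0.58, SE 0.129, adjusted p 0.0071). Without both replicate 1 libraries it counted as changed, as it did in 6 other alternatives. Cxcr6, the receptor on liver-resident T and NKT cells, had 6 to 18 counts in controls and 4 to 12 in iTgMir483 livers (exact permutation p = 0.106). The Cxcl16 gene overlaps Zmynd15 on the opposite strand, and since the strand setting of the counting is not stated, reads of that gene could add to it.

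Cxcl12, the homeostatic ligand of Cxcr4 that also binds Ackr3, was the most abundant chemokine of these livers per length of exon, at 52.8 CPM per kb in controls and 38.7 CPM per kb in iTgMir483 livers. Its controls ran from 368.7 over 416.3 to 517.6 CPM and its iTgMir483 livers from 273.5 over 323.6 to 354.4 CPM. No transgenic liver reached the lowest control. The mean was 431.4 ± 51.4 CPM in controls and 316.7 ± 28.5 CPM in iTgMir483 livers (SD, n = 6 each), so that Cxcl12 fell by 0.45 on the log2 scale (SE 0.106, adjusted p 0.0106), less than the 1.5-fold that counts as changed. Its signalling receptor Cxcr4 ran from 0.439 to 1.95 CPM in controls (median 1.13), and the transgenic livers spanned 1.0 to 3.0 CPM (median 1.42), with an adjusted p of 0.259. Ackr3, which takes up Cxcl12, ran from 0 to 1.32 CPM and from 0.439 to 1.02 CPM (adjusted p 0.759).

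**Figure D2:**
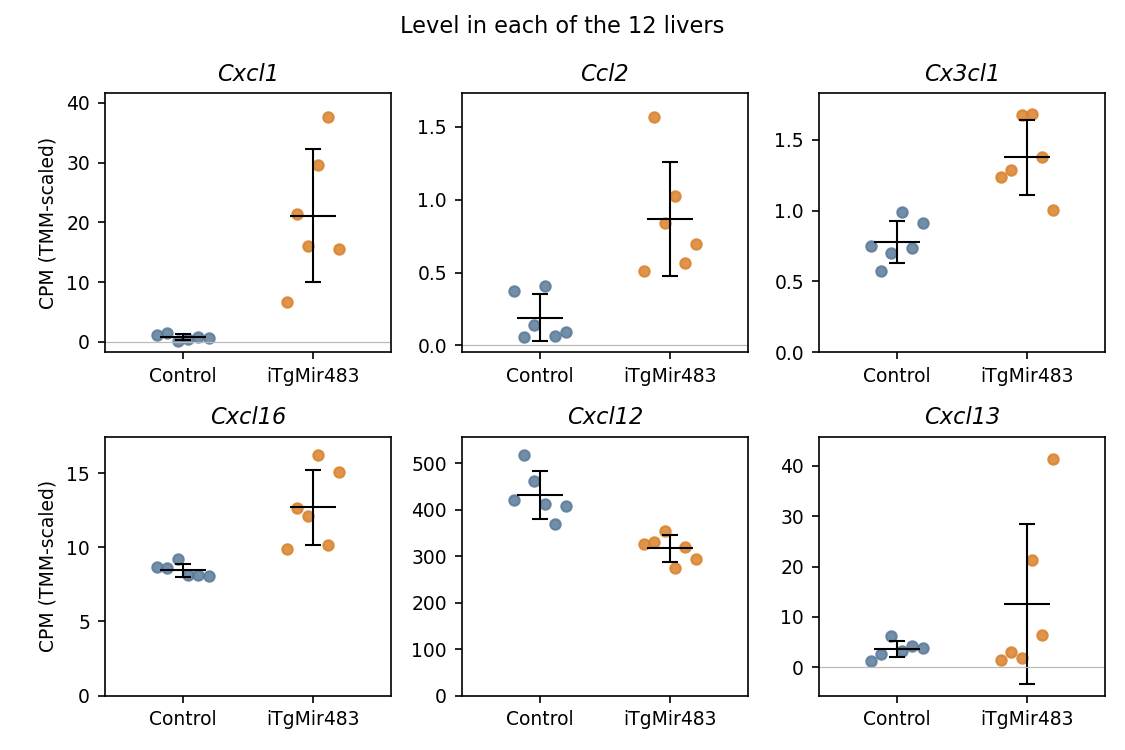
CPM in each of the 12 livers is drawn for 6 ligands on linear axes of their own, with 1 point a liver and the mean with SD as bars. For Cxcl1, Ccl2, Cx3cl1 and Cxcl16 the iTgMir483 livers lie above the controls and for Cxcl12 below, while 2 high livers set the mean of Cxcl13.

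Among the ligands of Ccr2, which recruit monocytes, Ccl2 was below the filter on low counts. It had 6, 1, 2, 12, 1 and 1 counts in controls and 7, 22, 14, 14, 9 and 9 in iTgMir483 livers. After scaling for depth the controls ran from 0.0575 to 0.410 CPM and the iTgMir483 livers from 0.510 to 1.57 CPM, with no overlap. A two-sided exact permutation test gave p = 0.0022, the smallest that reassigning the 12 mice can give, not adjusted for the 22 genes tested this way. In a fit of all genes without the filter, Ccl2 rose by 1.99 on the log2 scale (SE 0.477, adjusted p 0.0113). Ccl7, Ccl8 and Ccl12, the other 3 ligands of this receptor, had at most 5 counts in a liver, and neither Ccl7 (p = 0.214) nor Ccl8 (p = 0.242) passed the exact permutation test. Ccr2, the receptor of inflammatory monocytes, ran from 0.731 over 1.01 to 1.44 CPM in controls and from 0.50 over 0.712 to 0.879 CPM in iTgMir483 livers. The groups overlapped, and the difference did not pass (log2 fold change -0.59, SE 0.244, adjusted p 0.108).

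Cxcl13, the B cell attractant that acts on Cxcr5, varied widely among the iTgMir483 livers. Controls ran from 1.32 over 3.51 to 6.13 CPM and iTgMir483 livers from 1.46 over 4.69 to 41.3 CPM. Replicates 4 and 6, at 21.3 and 41.3 CPM, were far above every control. Replicate 5, at 6.45 CPM, was just above the highest control, and the rest of the group overlapped the controls. The log2 fold change of 1.81 (SE 0.722) had an adjusted p of 0.0932, and of 0.0435 without iTgMir483 replicate 1. Its receptor Cxcr5 had at most 10 counts in a liver (exact permutation p = 0.219).

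Cxcl14, a chemokine made by epithelia and stroma, had 0.0914 over 0.946 to 1.68 CPM in controls and 1.24 over 1.91 to 2.93 CPM in iTgMir483 livers. Its groups overlapped, and the log2 fold change of 1.03 (SE 0.372) had an adjusted p of 0.0688. With DESeq2 its adjusted p was 0.0292, and it was 0.0447 without Control replicate 4. The interferon-induced ligands of the T cell receptor Cxcr3, Cxcl9 and Cxcl10, had log2 fold changes of 0.53 and 0.60 and adjusted p of 0.251 and 0.297. Cxcl10 was at 3.50 and 3.88 CPM in iTgMir483 replicates 2 and 4, and the other 4 livers of the group lay within the range of the controls or below it. Reads of opposite-strand neighbours could likewise add to the counts of Cxcl10 (Art3), Ccl25 (Elavl1), Ccl6 (E230016K23Rik), Ccl21a (4930578G10Rik) and Ackr4 (Acad11). Cxcr3 was at 0.575 to 1.53 CPM in controls and at 0.360 to 1.16 CPM in iTgMir483 livers (adjusted p 0.504).

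The CC ligands at higher levels did not pass the test. Ccl9 and Ccl6, mouse ligands of Ccr1, followed Cxcl12 in level per length in controls, at 10.4 and 6.44 CPM per kb, and were at 13.6 and 5.11 CPM per kb in iTgMir483 livers (adjusted p 0.156 and 0.444). Ccr1 had at most 2 counts in a control and up to 8 in an iTgMir483 liver (exact permutation p = 0.113). Ccl5, an attractant of T cells and monocytes, had a log2 fold change of -0.07 (adjusted p 0.904). Ccl24, an eosinophil attractant, had one of -0.35 (adjusted p 0.414). Its receptor Ccr3 had 1 or 2 counts in every control and 0 in every iTgMir483 liver, all at or under the floor of 3 counts, so no fold is given.

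Ccl27a, an epithelial ligand of Ccr10, had 3.28 over 4.63 to 6.4 CPM in controls and 2.0 over 2.51 to 4.66 CPM in iTgMir483 livers. These ranges overlapped, with iTgMir483 replicate 1 the highest of its group. Its log2 fold change of -0.66 (SE 0.228) did not pass (adjusted p 0.0572). It counted as lower without both replicate 1 libraries (adjusted p 0.0268) and without iTgMir483 replicate 1 alone (0.0148). Ccl27a overlaps Il11ra1 on the opposite strand. It lies on chromosome 4 near Ccl19, Ccl21a, Ccl21b and Ccl27b, where some genes have related copies, as Ccl27a has Ccl27b, so its count is uncertain. Ccl25, the ligand of Ccr9, had a log2 fold change of -0.19 (adjusted p 0.317), and Ccl21a, a ligand of Ccr7 that guides cells to lymph vessels, one of 0.20 (adjusted p 0.874). Ccr9 had 2 to 13 counts in controls and 0 to 4 in iTgMir483 livers (exact permutation p = 0.0541), and Ccr7 at most 18 counts (p = 0.273, same exact test).

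Xcl1, a ligand made by NK and CD8 T cells, had 3, 6, 2, 4, 3 and 3 counts in controls and 2, 2, 0, 0, 3 and 1 in iTgMir483 livers. The ranges overlapped, and the unadjusted exact permutation p was 0.0346. Xcr1, its receptor on cross-presenting dendritic cells, had at most 9 counts (exact permutation p = 0.641).

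The atypical receptors were all above the filter. Ackr1, found on red cells and venular endothelium, had 0.640 over 0.727 to 1.32 CPM in controls and 0.960 over 1.40 to 1.78 CPM in iTgMir483 livers. Those ranges overlapped (log2 fold change 0.67, SE 0.247, adjusted p 0.0715), and without Control replicate 3, the highest control, the gene counted as higher (adjusted p 0.0386). Ackr1 also overlaps Cadm3, on the same strand, so its count is uncertain. Ackr2, which clears inflammatory CC chemokines, had a log2 fold change of 0.14 (adjusted p 0.718). Ackr4, which clears Ccl19, Ccl21 and Ccl25, had one of -0.64 (SE 0.326, adjusted p 0.187).

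**Figure D3:**
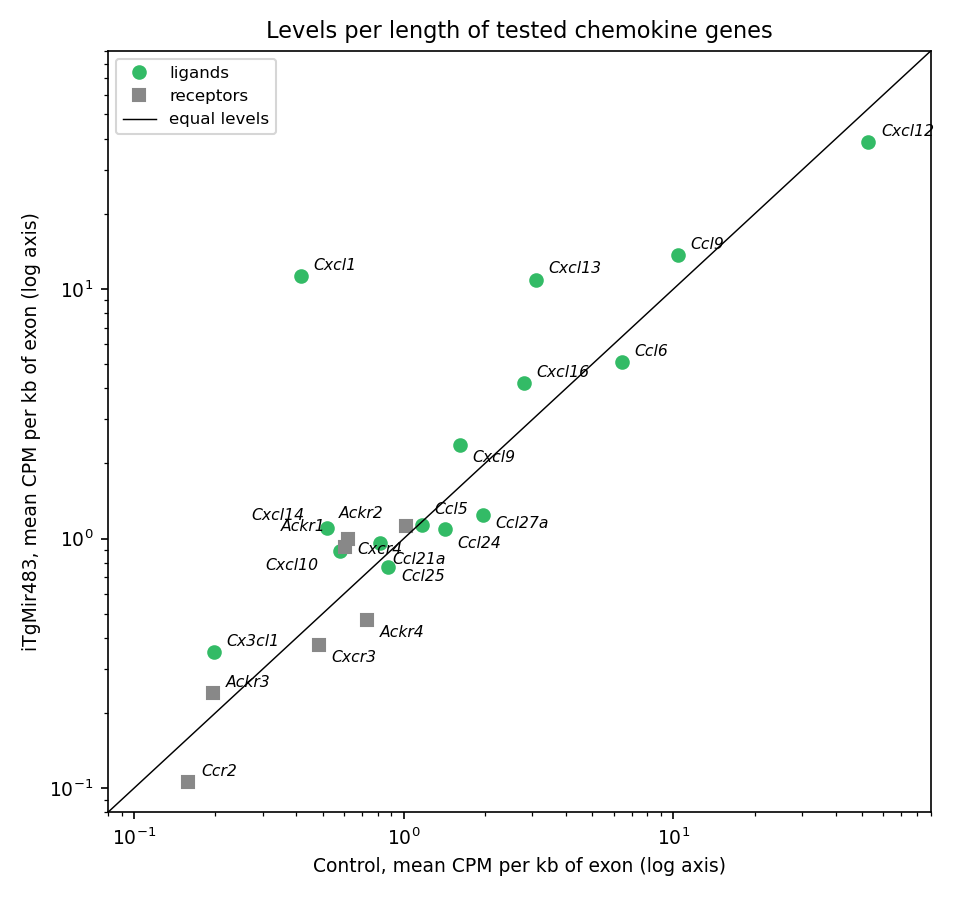
Mean CPM per kb of exon in control livers (x) is set against that in iTgMir483 livers (y) on log axes for 22 of the 23 tested genes, with the line of equal levels. Cxcl1 moved from 0.417 to 11.3 CPM per kb, from the 14th to the 3rd place of the 15 ligands, while Cxcl12 held the highest place in both groups.

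Ordered by level per length, Cxcl1 had rank 14 of the 15 tested ligands in controls and rank 3 in iTgMir483 livers, behind Cxcl12 and Ccl9. Cxcl13 had rank 4 in both groups, at 3.10 and 10.9 CPM per kb, and its spread between transgenic livers reaches across its neighbours in that order. Cx3cl1 had the lowest level of the tested ligands in both groups, at 0.198 and 0.351 CPM per kb. Among receptors Ackr2 was highest, at 1.02 and 1.12 CPM per kb, and Ccr2 lowest, at 0.159 and 0.106 CPM per kb.

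The remaining 37 genes, 22 ligands and 15 receptors, were not tested in the fit. Of these, 6 had 0 counts in all 12 livers (Ccl1, Ccl21b, Ccl26, Ccl27b, Cxcl15 and Ccr8), and 15, including those 6, never exceeded 3 counts in a library. The other 22 were compared by the exact permutation test, in which Ccl2 and Xcl1 had an unadjusted p under 0.05. Those not named above, Ccl3, Ccl4, Ccl17, Ccl19, Ccl22, Ccl28, Ccr1l1 and Ccr6, had at most 8 counts in a library and exact permutation p from 0.333 to 0.894.

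The 7-base site that pairs with the seed of miR-483-3p, AGGAGTG, was present in the longest annotated 3′ UTR of 4 of the 58 chemokine and receptor genes with such a UTR, among them Cx3cl1, Cxcl2 and Cxcl9, and in 3 of the 23 tested. Among all tested genes with a 3′ UTR, 12.6% held it (1522 of 12098). The site of miR-483-5p, CCCGTCT, was in 0 of the 58 and in 3.26% of all. Of the 3 tested genes with a miR-483-3p site, 1, Cx3cl1, changed, and Cxcl9 had the adjusted p of 0.251 given above. These letters were not found in the 3′ UTR of Cxcl1 or of Cxcl12.

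A list of 25 further genes of the pathway, of which 23 were tested, held G protein subunits, receptor kinases, arrestins and downstream effectors, with the platelet chemokines Pf4 and Ppbp, the peptidase Dpp4, which cleaves chemokines, and the chemokine-like receptor Ccrl2. Higher in iTgMir483 livers were 9 of the 23 (39.1%, beside 8.41% of all genes tested), and 0 were lower. Their median log2 fold change was 0.48. Among the 9 were Ccrl2, a non-signalling chemerin-binding receptor; Grk3, a kinase that desensitizes receptors; Pik3cg, the catalytic subunit of phosphoinositide 3-kinase gamma; Rac2, Dock2, Elmo1 and Vav1, which drive actin-based movement; and Fgr, a Src-family kinase of myeloid cells. Fgr had the largest difference, from 2.10 over 2.65 to 3.28 CPM in controls and from 4.44 over 7.06 to 16.3 CPM in iTgMir483 livers (log2 fold change 1.70, SE 0.272, adjusted p 0.00125), with no overlap. The other 8 had log2 fold changes from 0.81 (Ccrl2) to 1.35 (Vav1). Gnai2 and Gnai3, the inhibitory G protein subunits that couple chemokine receptors, passed the adjusted p below the fold threshold and in opposite directions, at 0.48 (adjusted p 0.00225) and -0.40 (adjusted p 0.0127). Without iTgMir483 replicate 4, whose summed level of the list was highest (869 CPM, against 681 to 729 CPM), 8 genes were called.

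Summed markers of neutrophils and macrophages, cells that carry chemokine receptors, were higher in iTgMir483 livers, while lymphocyte lists overlapped between groups. The part of these cells in the results was not tested. The counts of markers that rose stand beside 8.41% of all genes tested. For neutrophils, all 3 tested markers of the 9 listed rose: S100a8 by 2.32, S100a9 by 2.67 and Csf3r by 1.48 on the log2 scale. S100a8 had 2 to 10 counts in controls and 17 to 43 in iTgMir483 livers, so it passed the filter mainly through the latter. The count of tested markers that rose therefore depends in part on the filter. The neutrophil list summed to 3.33 to 6.06 CPM in controls and 7.62 to 32.1 CPM in iTgMir483 livers. Under the filter, Ngp had at most 4 counts in a control and 8 to 65 in iTgMir483 livers. Mpo, Camp and Mmp8 overlapped between groups, with at most 2 counts in a control and up to 27, 19 and 19 in an iTgMir483 liver. Retnlg overlapped as well, with at most 7 and 12 counts, while Ly6g, a defining marker, had 2 counts in all 12 livers together. From replicate 1 to replicate 6 the transgenic livers held 6.70, 21.3, 16.01, 29.6, 37.7 and 15.5 CPM of Cxcl1, and 30.3, 15.99, 7.62, 32.1, 24.2 and 17.6 CPM of neutrophil markers. Replicate 4 was high in both, and replicate 1 was lowest in Cxcl1 and second highest in the markers.

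For Kupffer cells, the resident macrophages, 6 of 7 markers rose, with Marco the largest at 2.38, and Vsig4 did not pass (0.54, adjusted p 0.0527). Marco varied widely among iTgMir483 livers, from 10.6 over a median of 25.8 to 154 CPM. Its lowest iTgMir483 liver lay within the controls, which ran from 9.41 to 12.7 CPM. The sum of the Kupffer cell list was 277 to 405 CPM in controls and 424 to 1230 CPM in iTgMir483 livers. For monocytes and recruited macrophages 2 of 4 tested markers of 8 rose, Itgam by 2.48 and Trem2 by 2.12 on the log2 scale. Itgam had at most 11 counts in a control, so it passed the filter mainly through the iTgMir483 livers. Cd9 (0.29, adjusted p 0.290) and Fcgr4 (0.66, adjusted p 0.102) did not pass, and they had the highest means of the list. Under the filter, Ly6c2, Gpnmb, F13a1 and Chil3 overlapped between groups, Chil3 with at most 4 counts in a control and up to 23 in an iTgMir483 liver. The sum of this list was 11.0 to 19.4 CPM in controls and 22.8 to 38.3 CPM in iTgMir483 livers. By the sums of both lists all transgenic livers lay above all controls.

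Lymphocyte lists overlapped between groups. The T cell list held 3.08 to 4.66 CPM in controls and 2.86 to 4.91 CPM in iTgMir483 livers, with Cd4, which macrophages can also express, the 1 of 2 tested markers that rose (0.96). The other tested marker, Trac, had a log2 fold change of -0.58 (adjusted p 0.317). Cd3g, a chain of the T cell receptor complex that was under the count filter, had a mean of 0.862 ± 0.174 CPM in controls and 0.311 ± 0.0991 CPM in iTgMir483 livers (SD, n = 6 each), with all 6 transgenic livers below all controls. Cd3e (0.606 and 0.495 CPM) and Cd3d (0.524 and 0.432 CPM), also under the filter, overlapped between groups. B cell markers held 2.56 to 8.0 and 2.69 to 5.57 CPM, with 0 of 3 changed and 1, Cd79a, at an unadjusted p under 0.05, and NK cell markers 0.823 to 2.88 and 0.874 to 2.38 CPM, with 0 of 5 above the filter. Dendritic cell markers held 11.1 to 16.9 and 13.2 to 18.9 CPM, and Itgax, shared with macrophages, rose by 0.90 on the log2 scale. In the bile duct list, a possible epithelial source of chemokines, Krt7 and Epcam rose by 1.34 and 1.41 on the log2 scale, and 2 of 4 did not pass. Of the sinusoidal endothelium and stellate cell markers 0 of 5 changed in each. Pecam1 passed the adjusted p below the fold threshold (log2 fold change 0.42, adjusted p 0.0239). Reln had only an unadjusted p under 0.05 (adjusted p 0.110). Of the red blood cell markers 0 of 5 changed, with 0 at that unadjusted p. Hepatocyte markers were abundant in all livers, as the tissue label says, and 1 of 5, Cps1, fell by 1.21 on the log2 scale.

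**Figure D4:**
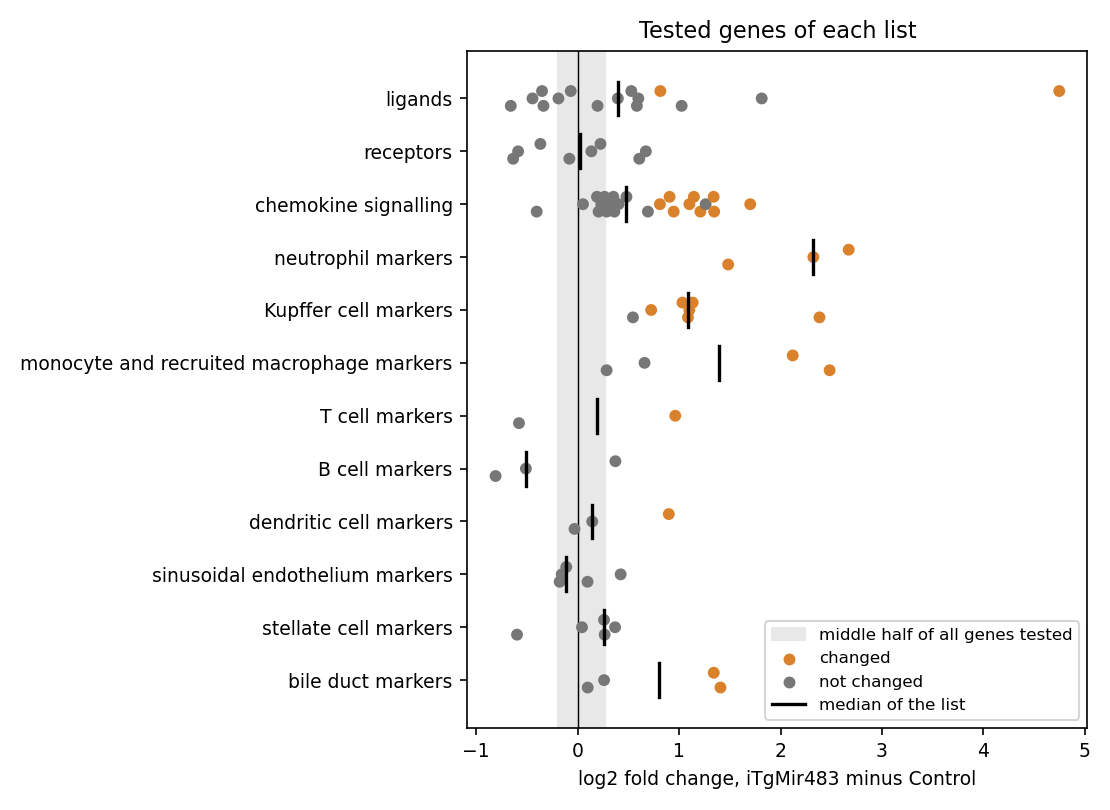
Each point is the log2 fold change of a tested gene, by list, with the list's median as a bar and the range between the quartiles of all genes tested shaded. Chemokine ligands and receptors lie on both sides of the shaded band, with Cxcl1 (4.75) and Cxcl13 (1.81) farthest to its right, and all tested neutrophil and Kupffer cell markers, from 0.54 (Vsig4) to 2.67 (S100a9), lie to its right.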

How the data were processed

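Liver RNA of 12 mice was sequenced from stranded poly(A) libraries. The deposited table holds a raw count of reads for each gene, which the authors made by aligning reads to GRCm38 with STAR and taking its gene counts with Ensembl annotation; which strand column was used is not given in the sources used here. It has 55401 genes, with 0 rows that name no gene and 0 columns that belong to none of the samples. Symbols, positions and exon lengths came from GENCODE M21, in which 55141 identifiers had a symbol and 260 had none. A further 7 protein-coding genes of the annotation matched the symbol rule but were not in the count table, so they were not analysed here.

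Groups and replicate numbers came from the sample titles, and each liver was 1 replicate. The labels named no batch, so none could be a term. Genes kept by filterByExpr (13205) entered edgeR's quasi-likelihood F-test after scaling by TMM (R 4.3.3, edgeR 4.0.16, limma 3.58.1), with Benjamini-Hochberg adjustment over all of them. SE is the absolute log2 fold change over the root of F. Chemokine genes under the filter with over 3 counts in a library were given a two-sided exact permutation test on mean log2(CPM + 0.1). Counts of 3 or fewer were taken as the floor, a limit that reflects counting error alone, since reads had no molecular identifiers. The scripts were tested on simulated data. Every chemokine gene is in the counts, although some genes are not reported here by name, chemokine genes that changed or whose call depends on a setting are given by their lowest, median and highest liver (by every liver for Cxcl1 and Ccl2), and other genes are named where they changed within a list. The genes and lists were chosen with earlier results of these data known. The alternatives tried were DESeq2 1.42.0 and limma-voom, RLE scaling, no filter or a stricter one on counts, other fold rules, a replicate block and leaving libraries out. Promoter and microRNA sequences are from RefSeq (GRCm38.p6), with a promoter window for 46 of the 60 genes.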

Additional observations from a re-analysis of the deposited data

Results flagged for a closer look

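In 74 groups of 6 values (tested chemokine genes and summed lists), the gap between the most extreme liver and its nearest neighbour was compared with the whole range of the group (Dixon's test). The 95% critical ratio was exceeded 5 times, where chance gives about 1 in 20 groups, or 3.7. One was a chemokine gene: Cxcr3 in controls had a ratio of 0.742, with replicate 3 at 1.53 CPM and the other 5 controls at 0.575 to 0.823 CPM.

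The liver of iTgMir483 replicate 4 accounted for 3 of the others. Its summed Kupffer cell markers were 1230 CPM against 424 to 693 CPM (ratio 0.667), its monocyte and recruited macrophage markers 38.3 CPM against 22.8 to 26.4 CPM (ratio 0.764), and its chemokine signalling genes 869 CPM against 681 to 729 CPM (ratio 0.745). That liver had the highest level of its group for 7 of the 23 tested chemokine genes. The last was the NK cell list in iTgMir483 replicate 5, at 2.38 CPM against 0.874 to 1.39 CPM (ratio 0.655).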

How the results depend on the processing

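Over the tested chemokine genes and all alternative settings, a call stayed as it was in 451 cases, was gained in 18, lost in 2 and reversed in none. Both losses were Cx3cl1, without a count filter (adjusted p 0.0744) and when tested against a fold of 1.5 with glmTreat (0.636). The 2 changed ligands became 4 with DESeq2, 4 without a fold threshold and 4 without both replicate 1 libraries, and 1 with glmTreat. The 0 changed receptors became 1 without a count filter, Ccr3, which is at the floor in both groups. Of the 9 signalling genes 1 was left with glmTreat, and 13 passed without a fold threshold. Over all genes, 1470 changed, 226 with glmTreat and 2457 without a fold threshold, when the share higher was 60.6% in place of 75.5%. Leaving out 1 library at a time gave 2 to 5 ligands (5 without iTgMir483 replicate 1), 0 to 1 receptors (1 without Control replicate 3), 7 to 10 signalling genes and 1190 to 1653 genes in all. Requiring at least 10 counts in every sample removed Cxcl1 from the test, since a control had 2. With RLE scaling the all-gene median was -0.0062 in place of 0.0058.

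The equal replicate numbers did not pair the livers throughout. Their deviations correlated at 0.0252 to 0.47, above 0.1 in 2 of 6 pairs, replicate 1 (0.47) and replicate 5 (0.182). In these 2 of 6 the control matched best the liver of its own number. With the replicate block 3 ligands changed (Ccl27a was added, adjusted p 0.035), 0 receptors, 10 signalling genes and 1530 genes in all.

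Depth limits the rest: 37 of the 60 genes were under the count filter, and for 15 of them no liver exceeded 3 counts, so a difference there was not detectable. Without molecular identifiers or cell counts, levels are of whole-liver RNA only.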
